A study of Mus musculus with 9 samples.

Results

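Circadian clock genes were followed across mouse ventricles with raised or lowered activity of phosphoinositide 3-kinase (PI3K), the lipid kinase that relays insulin and growth factor signals. The 10 genes were chosen by symbol, and every probe set that the array's annotation gave to Per1, Per2, Per3, Cry1, Clock, Arntl, Dbp, Tef, Nr1d1 or Rora was taken. They had 13 of the 12488 probe sets on the array, where a probe set is the group of short oligonucleotides whose joint brightness reports one transcript. Of the 13, 10 probe sets, 1 for each gene, were bright enough to be tested.

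Total RNA from tissue labelled as ventricle alone was hybridised to 9 one-colour arrays, 3 for each group, and the labels give each array its own mouse number. The caPI3K mice carried a constitutively active PI3K transgene and had hearts 20% larger than those of their wild type littermates. The dnPI3K mice carried a dominant-negative PI3K transgene, and their heart size had decreased by 17% relative to wild type littermates. The NTG mice were non-transgenic and served as the controls of both. The promoter of the transgenes, the strain, sex and age of the mice and the hour at which the hearts were taken were not stated in the records used.

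The molecular clock is a feedback loop of transcription factors that runs in nearly every cell, cardiomyocytes included. CLOCK and its partner ARNTL (BMAL1) bind E-box sequences and switch on the Per and Cry genes, whose proteins return to repress CLOCK and ARNTL. The nuclear receptor NR1D1 (REV-ERB alpha) represses Arntl and Cry1 and RORA activates Arntl, while DBP and TEF carry the rhythm to output genes through D-box sequences, so that in mouse tissues Arntl peaks near the opposite time of day to Dbp and the Per genes.

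Promoter sequences are shown for Per3 and Cry1, the members that passed the test in dnPI3K against NTG, and for Per1, whose window held both an E-box and a D-box. RefSeq promoter windows on GRCm38.p6 were matched for 9 of the 10 genes, with 14 windows among them, each reaching from 250 bases before to 50 bases after an annotated start. Per2 had no entry. The 250 bases before the start are given for Per3 at chr4:151044666-151044915 (minus strand), Cry1 at chr10:85185055-85185304 (minus strand) and 1 of the Per1 starts at chr11:69098699-69098948 (plus strand), with E-boxes and D-boxes in capitals.
Per3: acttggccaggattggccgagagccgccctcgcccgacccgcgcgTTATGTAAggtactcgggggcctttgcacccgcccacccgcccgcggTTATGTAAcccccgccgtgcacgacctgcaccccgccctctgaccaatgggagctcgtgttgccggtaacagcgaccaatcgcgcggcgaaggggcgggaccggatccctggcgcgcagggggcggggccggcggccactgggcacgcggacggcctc
Cry1: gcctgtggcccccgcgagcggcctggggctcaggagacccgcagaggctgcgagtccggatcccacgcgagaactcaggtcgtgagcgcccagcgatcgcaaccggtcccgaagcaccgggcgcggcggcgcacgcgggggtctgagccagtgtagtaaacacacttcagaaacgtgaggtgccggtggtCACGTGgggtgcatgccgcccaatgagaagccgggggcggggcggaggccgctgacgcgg
Per1: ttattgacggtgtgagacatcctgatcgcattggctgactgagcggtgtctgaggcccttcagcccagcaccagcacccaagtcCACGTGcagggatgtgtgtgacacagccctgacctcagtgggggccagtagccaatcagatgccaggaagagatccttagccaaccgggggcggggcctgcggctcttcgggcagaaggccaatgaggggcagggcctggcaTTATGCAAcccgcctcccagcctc
The capitals in Per3 mark D-boxes (TTATGTAA) that begin 205 and 158 bases before the start. In Cry1 they mark an E-box (CACGTG) 60 bases before the start, and in Per1 an E-box 166 bases and a D-box (TTATGCAA) 24 bases before it.

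Motifs were searched on both strands of the whole windows, and a match is a stretch of letters, not a measured binding site. The E-box CACGTG lay in 4 of the 14 member windows, those of Per1, Cry1 and Tef, and in 7.15% of all 32851 mouse windows. The D-box, TTATGTAA or TTATGCAA, lay in 2 of the 14, of Per1 and Per3, and in 1.66% of all windows. The ROR element core, AGGTCA or GGGTCA, lay in 3 of the 14, of Per1, Clock and Arntl, against 27.5% of all windows, and the cAMP response element TGACGTCA lay in none of the 14 and in 1.79% of all windows. The Per2 promoter was not searched.

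Levels are quantile normalized array intensities, in the linear units of the deposited files, given in the order of replicates 1, 2 and 3. A difference is a log2 fold change with its standard error from limma, and it passed the test when its p-value, Benjamini-Hochberg adjusted over all 10645 tested probe sets, was below 0.05. Between caPI3K and NTG hearts, 0 of the 10 clock probe sets passed in limma (1 had an unadjusted p below 0.05), against 0.0845% of all tested probe sets. Between dnPI3K and NTG, 2 of 10 passed, Per3 and Cry1, both higher in dnPI3K, against 2.18% of all. Between caPI3K and dnPI3K, 2 of 10 passed, Per3 and Rora, both lower in caPI3K, against 3.24% of all. Over the 3 groups at once, limma's F test passed 2 of 10, Per3 and Cry1, against 2.63% of all.

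**Figure D1:**
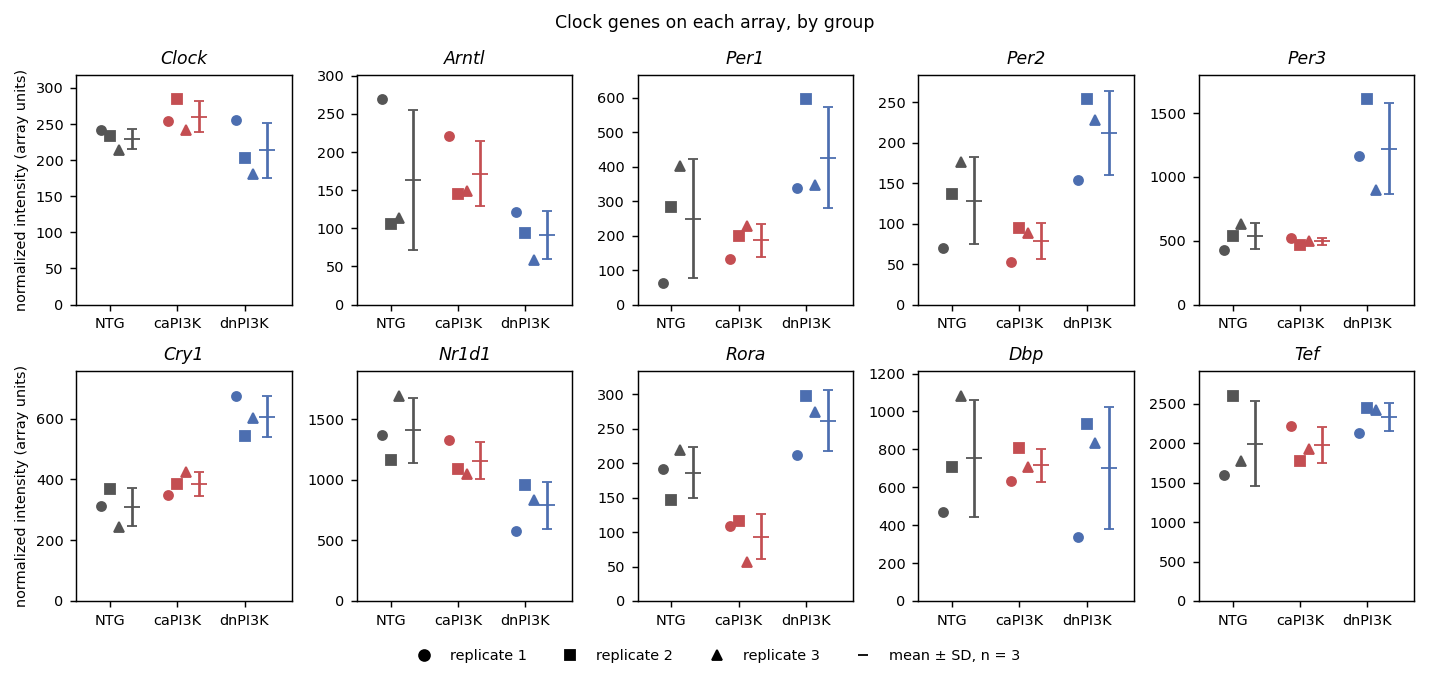
Normalized intensity (vertical axes, array units, each starting at 0) of the tested probe set of each clock gene on every array, by group, with the replicate number as the symbol and the mean ± SD of 3 arrays as the bar. The dnPI3K arrays lie between 899 and 1609.8 for Per3, above every NTG and caPI3K array, and the NTG arrays of Per1 run from 61.6 to 403.

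The period genes encode the repressors of the loop. Per3 read 431, 540.2 and 634 in NTG, 519, 468 and 499 in caPI3K, and 1161, 1609.8 and 899 in dnPI3K. All 3 dnPI3K hearts were higher than every other heart, while the caPI3K values lay inside the NTG range. Per3 rose 2.25-fold in dnPI3K over NTG, a log2 fold change of 1.17 ± 0.208 (SE; limma, adjusted p = 0.0185), with group means of 1223 ± 359.6 and 535 ± 102 (SD, n = 3). It was 2.40-fold lower in caPI3K than in dnPI3K (log2 fold change -1.26 ± 0.208, SE; limma, adjusted p = 0.00883). Between caPI3K and NTG the Per3 difference was -0.09 with a 95% interval of -0.55 to 0.37 (limma, adjusted p = 0.957). The dnPI3K against NTG call for Per3 was lost without dnPI3K 1, dnPI3K 2, NTG 1 or NTG 2 (limma, adjusted p from 0.0554 to 0.0661), with log2 fold changes from 0.95 to 1.37 over the left-out arrays. It was also lost with dim probe sets kept, without the intensity trend, and with dnPI3K and NTG fitted alone (limma, adjusted p = 0.0753, 0.0683 and 0.0557).

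Per1 and Per2 did not pass the test in any comparison, and both varied widely among the controls. Per1 read 61.6, 283 and 403 in NTG, 134, 199 and 227 in caPI3K, and 338, 596 and 347 in dnPI3K. The highest NTG heart held 6.55 times the Per1 signal of the lowest, and the dnPI3K values overlapped the NTG range. The Per1 log2 fold changes were 1.10 ± 0.580 (SE) for dnPI3K and -0.07 ± 0.580 for caPI3K, each against NTG (limma, adjusted p = 0.422 and 0.987). Per2 read 70.4, 137 and 176 in NTG, 52.6, 94.7 and 88.1 in caPI3K, and 154, 254 and 228 in dnPI3K. For Per1 and for Per2, every caPI3K heart was below every dnPI3K heart, with log2 fold changes of -1.18 and -1.45 (limma, adjusted p = 0.347 and 0.0865). The Per2 difference passed with a floor at the 40th percentile, with array weights, and with the transgene groups fitted alone (limma, adjusted p = 0.0438, 0.0479 and 0.0488).

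Cry1, the cryptochrome that joins PER proteins in repression, read 313, 367 and 244 in NTG, 347, 384 and 425 in caPI3K, and 676, 542 and 601 in dnPI3K. The dnPI3K hearts formed a group above all the others, and the caPI3K values overlapped those of NTG. Cry1 rose 1.99-fold in dnPI3K over NTG, with a log2 fold change of 0.99 ± 0.185 (SE; limma, adjusted p = 0.0240) and group means of 606 ± 66.9 and 308 ± 62.0 (SD, n = 3). The caPI3K against NTG difference in Cry1 was 0.34 ± 0.185 (SE; limma, adjusted p = 0.765), and caPI3K was lower than dnPI3K by a log2 fold change of -0.65 (limma, adjusted p = 0.0952, and 0.0496 with the transgene groups fitted alone or 0.0489 without NTG 3). The dnPI3K call was lost without any 1 of the dnPI3K arrays or without NTG 1 (limma, adjusted p from 0.0574 to 0.0809), and with dim probe sets kept, without the trend, and with dnPI3K and NTG fitted alone (limma, adjusted p = 0.0509, 0.0530 and 0.0623). The tested Cry1 probe set is of a type that the manufacturer marks as shared by a family of sequences, and the other 2 Cry1 probe sets were below the detection floor on every array, so they give no second reading.

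No difference of the activators Clock and Arntl passed the test. Clock read 242, 233 and 214 in NTG, 255, 284 and 242 in caPI3K, and 256, 203 and 181 in dnPI3K. Its NTG arrays spanned 1.13-fold, the narrowest control range among the members, and its log2 fold changes of 0.18 in caPI3K and -0.12 in dnPI3K relative to NTG, and 0.30 between the transgene groups, did not pass (limma, adjusted p from 0.546 to 0.892). Arntl read 269, 106 and 114 in NTG, 221, 145 and 149 in caPI3K, and 121, 94.0 and 58.0 in dnPI3K. NTG 1 stood well above the other controls, and every caPI3K heart was above every dnPI3K heart. The Arntl log2 fold changes were 0.18 ± 0.417 (SE) for caPI3K and -0.77 ± 0.417 for dnPI3K relative to NTG, and 0.95 ± 0.417 between the transgene groups (limma, adjusted p = 0.957, 0.441 and 0.285).

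Of the nuclear receptors of the loop, Nr1d1 stood lowest in dnPI3K and Rora lowest in caPI3K. Nr1d1, the repressor, read 1368, 1162 and 1695 in NTG, 1331.5, 1085.5 and 1051 in caPI3K, and 578, 955 and 834 in dnPI3K. All 3 dnPI3K hearts were below all the others, and the difference from NTG narrowly missed the threshold at a log2 fold change of -0.85 ± 0.196 (SE; limma, adjusted p = 0.0547). It passed when the detection floor was raised to the 40th percentile (limma, adjusted p = 0.0415) or when only probe sets brighter than the median were tested (limma, adjusted p = 0.0381). Rora, the activator, read 192, 146 and 219 in NTG, 108, 116 and 56.1 in caPI3K, and 213, 298 and 274 in dnPI3K. Every caPI3K heart was below every NTG and every dnPI3K heart. Rora was 2.91-fold lower in caPI3K than in dnPI3K (log2 fold change -1.54 ± 0.328, SE; limma, adjusted p = 0.0310). Neither group differed from NTG past the threshold, with log2 fold changes of -1.04 ± 0.328 in caPI3K and 0.50 ± 0.328 in dnPI3K (SE; limma, adjusted p = 0.502 and 0.544). The Rora call was lost on leaving out any 1 of the 6 transgenic arrays (limma, adjusted p from 0.0529 to 0.118), with dim probe sets kept and without the trend (limma, adjusted p = 0.0756 and 0.0509). Its probe set is of a type that can share sequence with other transcripts. A second Rora probe set was above the floor on 2 arrays, at 96.3 in NTG 3 and 42.0 in dnPI3K 3, and was not tested.

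Dbp and Tef, the D-box activators that pass the rhythm on, showed no group difference that passed. Dbp read 471, 705 and 1084 in NTG, 634, 806 and 705 in caPI3K, and 337, 933 and 836 in dnPI3K. The groups overlapped fully, and dnPI3K 1 held the lowest Dbp of all hearts while the other dnPI3K hearts were near the top. Its log2 fold change was 0.00 in caPI3K (95% interval -0.83 to 0.83) and -0.15 in dnPI3K (-0.98 to 0.67) against NTG (limma, adjusted p = 1.0 and 0.898). Tef read 1598.5, 2606 and 1773 in NTG, 2224, 1772 and 1929 in caPI3K, and 2131, 2447 and 2423 in dnPI3K. Its log2 fold changes were 0.01 in caPI3K (95% interval -0.35 to 0.38) and 0.26 in dnPI3K (-0.11 to 0.62) against NTG (limma, adjusted p = 0.993 and 0.531). These intervals still hold changes of moderate size, so the outputs were not shown to be alike in the groups.

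**Figure D2:**
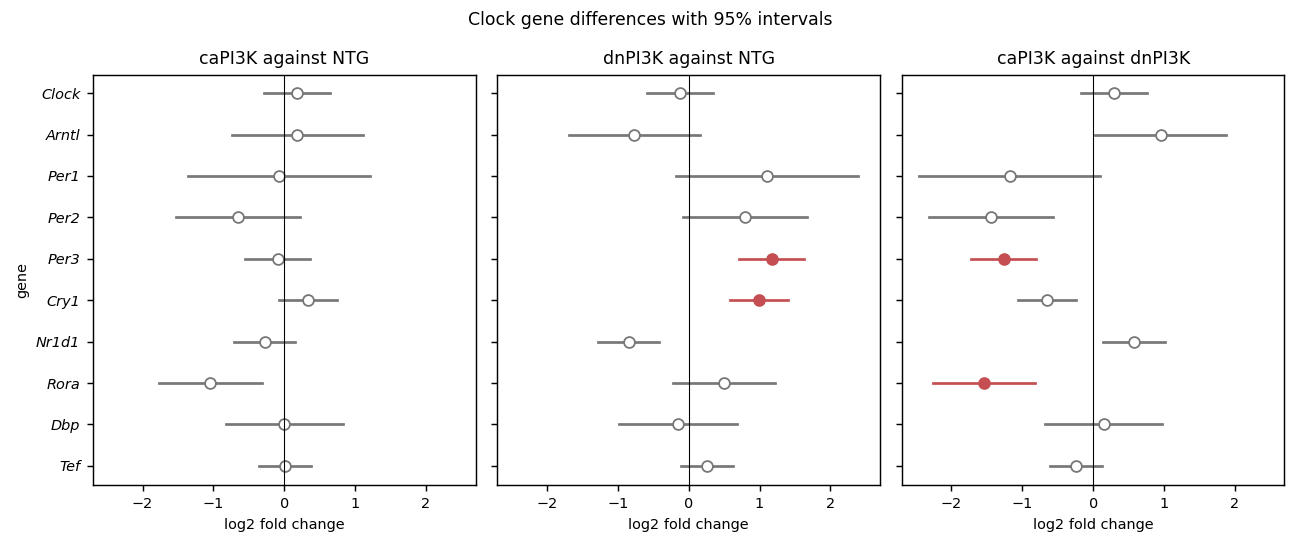
Log2 fold change (horizontal axes) of each clock gene in the 3 comparisons, with its 95% interval from limma as the line, and filled symbols for an adjusted p below 0.05. Per3 (1.17) and Cry1 (0.99) are filled for dnPI3K against NTG, Per3 (-1.26) and Rora (-1.54) for caPI3K against dnPI3K, and no gene for caPI3K against NTG.

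Over the 10 members, the median log2 fold change was -0.04 in caPI3K and 0.38 in dnPI3K relative to NTG, and -0.45 in caPI3K relative to dnPI3K, where the medians over all 7477 tested genes were 0, 0.0070 and 7.6e-05. Groups without any overlap were found for 2 of 10 members in caPI3K against NTG (Clock higher and Rora lower; 12.1% of all tested probe sets), 3 of 10 in dnPI3K against NTG (Per3 and Cry1 higher and Nr1d1 lower; 19.1%) and 7 of 10 in caPI3K against dnPI3K (23.7%). Of those 7, 5 were lower in caPI3K (Per1, Per2, Per3, Cry1 and Rora) and 2 were higher (Arntl and Nr1d1). The separation of Clock between caPI3K and NTG was slight, with 242.16 on the lowest caPI3K array and 241.83 on the highest NTG array. In the deposited values these groups overlapped in Clock, at 239.4 and 248.1. The comparisons with NTG share the same 3 control hearts, and each comparison with dnPI3K shares the same 3 dnPI3K hearts, so their counts are not separate evidence.

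The dnPI3K hearts also stood apart in other ways. Their mouse numbers form a series of their own, with no NTG mouse of a near number, so the transgene and anything that goes with that series cannot be told apart. The arrays' spiked-in control transcripts, which do not come from the tissue, were lower on the dnPI3K arrays too. The geometric mean of these controls was 269 to 367 in dnPI3K and 432 to 584 on the other arrays. The array's control for 18S ribosomal RNA read 3265 to 8567 in dnPI3K and 450 to 671 on the other arrays. The 5 smooth muscle markers summed to 3895 to 4709 in dnPI3K, 2504 to 2987 in NTG and 1926 to 2424 in caPI3K. Of the 4 that were tested, Acta2 alone passed in dnPI3K against NTG (log2 fold change 0.997, limma, adjusted p = 0.0176). It read 2749, 2021 and 2894 in dnPI3K and 1457, 1170 and 1188 in NTG. Myh11, Smtn and Tagln had log2 fold changes of 0.61, 0.24 and 0.23 (limma, adjusted p = 0.312, 0.656 and 0.530). Cnn1, not tested, was below the floor on every dnPI3K array. The 6 ventricular cardiomyocyte markers, all tested, summed in the deposited values to 151390 to 161290 in dnPI3K, 185970 to 247310 in NTG and 196640 to 222380 in caPI3K. After quantile normalization, which sets the level of the brightest probe sets, they summed to 184400 to 205240 on every array. Of the 5 atrial markers, all tested, 2 fell in dnPI3K against NTG and 0 rose, where 89 of all 7477 tested genes fell and 75 rose. The 2 were the atrial myosin light chain genes Myl4 and Myl7 (log2 fold changes -5.48 and -5.19, limma, adjusted p = 0.0400 and 0.0476). The size of the Myl4 change is uncertain, because its dnPI3K readings of 27.9, 49.7 and 36.1 lay at or near the floor. A second Myl4 probe set gave -1.73 (limma, adjusted p = 0.0144). Nppa, and Sln near the floor, lay higher on every dnPI3K array than on any NTG array. Their log2 fold changes of 1.48 and 0.74, and -0.27 for Bmp10, did not pass (limma, adjusted p = 0.148, 0.456 and 0.590). Myl7 read 7253, 4703 and 315 in NTG, 653, 525 and 5579 in caPI3K, and 36.5, 142 and 42.2 in dnPI3K, so it differed widely between hearts of 1 group. The atrial list, which holds the wall stress gene Nppa too, summed to 2169 to 21121 in NTG, 2438 to 13506 in caPI3K and 8719 to 11353 in dnPI3K. Its highest sums within NTG and caPI3K were on NTG 1, the array with the highest Arntl and the lowest Per1, and on caPI3K 3, the array with the lowest Rora. No single clock gene followed the atrial sums, since caPI3K 3 had Arntl at 149 and Per1 at 227. The array caPI3K 1, with Arntl at 221 and Per1 at 134, had an atrial sum of 2963. NTG 2, with Arntl at 106 and Rora at 146, had an atrial sum of 12194. The 6 fast skeletal muscle markers, 5 of them tested, summed to 15449 to 21003 in NTG, 34206 to 41978 in caPI3K and 9742 to 14300 in dnPI3K. They did not move as a set. For Myl1, Acta1, Casq1, Tnnt3 and Pvalb the log2 fold changes against NTG were 1.20, 1.19, 0.84, 0.32 and -0.25 in caPI3K. In dnPI3K they were -2.02, -0.07, -1.84, 0.20 and -0.46. The part of all these in the clock gene levels was not tested, and in whole ventricle fewer cells of a type and less RNA per cell cannot be told apart. The caPI3K and NTG mice did share 2 number series, with 2 arrays of each group in one and 1 of each in the other. Within them Rora differed by -0.58 and -1.97, Per2 by -0.48 and -1.002 and Nr1d1 by -0.07 and -0.69 on the log2 scale, whereas Per1 (0.31 and -0.83), Per3 (0.03 and -0.34) and Dbp (0.31 and -0.62) took opposite signs.

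Members were next compared with each other across hearts, to see whether the clock genes moved together from animal to animal. On NTG 1 the log2 level of Arntl was 1.06 above its mean over the 9 arrays while Per1 was at -1.98, Per2 at -0.81 and Dbp at -0.54. The array caPI3K 1 showed the same arrangement, with Arntl at 0.77, Per1 at -0.86, Per2 at -1.23 and Dbp at -0.12. The converse was seen on dnPI3K 2, with Arntl at -0.46, Per1 at 1.29, Per2 at 1.04 and Dbp at 0.44. The array dnPI3K 1 departed from it, since Per1 (0.47), Per2 (0.32) and Per3 (0.78) were above their means and Dbp was at -1.03.

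**Figure D3:**
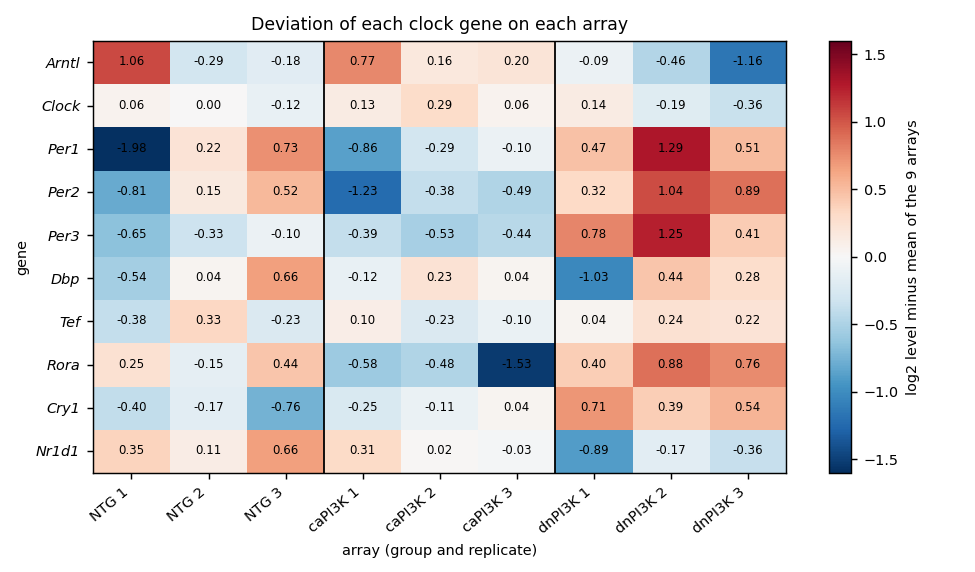
Log2 level of each clock gene (rows) on each array (columns) minus that gene's mean over the 9 arrays, by color and as a printed value, with black lines between groups. NTG 1 and caPI3K 1 are high in Arntl (1.06 and 0.77) and low in Per1 (-1.98 and -0.86), and Per3 is above its mean on every dnPI3K array.

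All 45 pairs of members were correlated over the 9 arrays on the log2 scale, with exact two-sided permutation tests over all 362880 orders of the arrays and Benjamini-Hochberg adjustment over the 45. The orders disregard the groups, so differences between groups are part of these correlations and p-values. Deviations from the group means carry no test. By Pearson's r 3 pairs passed at 0.05, by Spearman's rho 6 did, and 11 had an unadjusted Pearson p below 0.05. Per2 ran opposite to Arntl, with r = -0.893 (exact permutation p = 0.000948, adjusted 0.0213) and rho = -0.917 (exact permutation p = 0.00131, adjusted 0.0197). Without NTG 1 and caPI3K 1, the arrays farthest from the median of Per2, r was -0.809, and over deviations from the group means it was -0.857. Per1 and Per2 ran together, with r = 0.863 (exact permutation p = 0.00156, adjusted 0.0234) and rho = 0.950 (exact permutation p = 0.000353, adjusted 0.00794), and r was 0.911 without NTG 1 and caPI3K 1 and 0.897 over the group deviations. On the 6 caPI3K and NTG arrays alone, a subset chosen after seeing the data, r was -0.871 for Per2 with Arntl and 0.796 for Per1 with Per2 (exact permutation p = 0.0264 and 0.0569, adjusted 0.295 and 0.306). Over the 6 alternatives that were tested, the call was lost in 4 for Per2 with Arntl and in 2 for Per1 with Per2. Both counts include the 6 caPI3K and NTG arrays, which are too few for a pair to pass by itself after adjustment. The weakest r of Per2 with Arntl among all alternatives was -0.685. The mouse number series hold too few arrays for a correlation within each.

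Per1 and Arntl had r = -0.835 (exact permutation p = 0.00594, adjusted 0.0669) and rho = -0.867 (exact permutation p = 0.00451, adjusted 0.0338). Without NTG 1 and caPI3K 1, r was -0.519 (exact permutation p = 0.236), so the r of Per1 with Arntl over all 9 arrays depends in part on those arrays. Leaving out NTG 1 alone gave -0.729, and caPI3K 1 alone -0.813. Over deviations from the group means r was -0.740, and on the 6 caPI3K and NTG arrays it was -0.945 (exact permutation p = 0.00556, adjusted 0.125). Without NTG 1 and NTG 3, the 2 of those 6 arrays farthest in Per1, it was -0.975 on the few that remained. For Cry1 and Nr1d1 the dnPI3K hearts form a cluster of their own in both genes, and no r over all arrays is given. Over the 9 arrays the order of the Cry1 levels was the exact reverse of the order of the Nr1d1 levels. Among the 6 caPI3K and NTG hearts r was -0.977 (exact permutation p = 0.00139, the smallest that 6 arrays allow, adjusted 0.0625) and rho was -1.0 (exact permutation p = 0.00278). Leaving out NTG 3 and caPI3K 3, the 2 of those 6 farthest in Cry1, gave r = -0.921 on the few that remained. Over deviations from the group means of all 9 arrays r was -0.894.

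**Figure D4:**
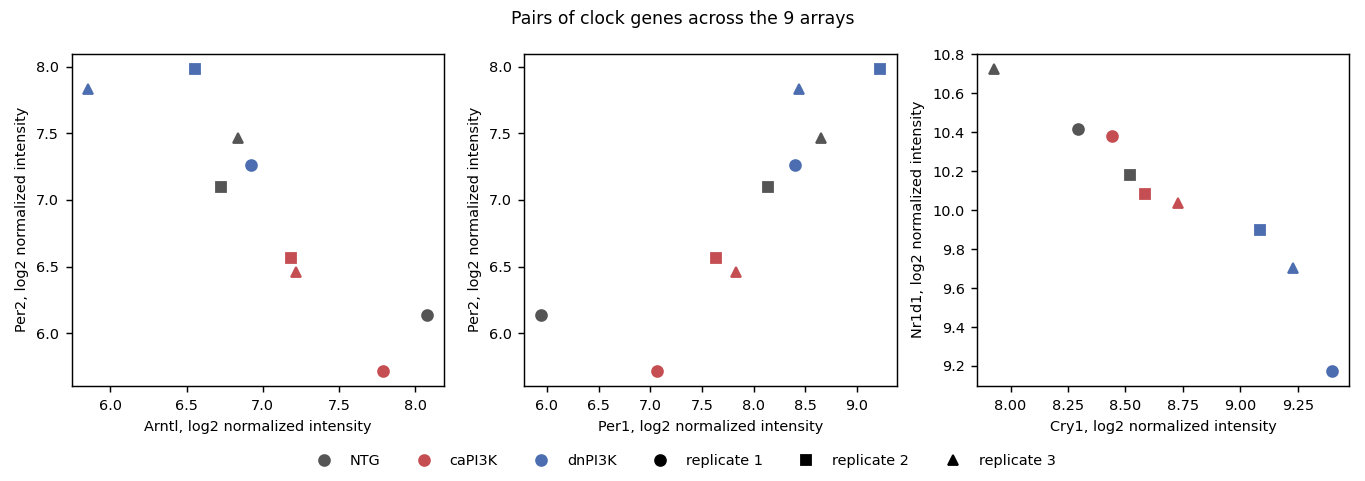
Log2 normalized intensity of 3 pairs of clock genes, with 1 point for each array, the group as the color and the replicate as the symbol. Per2 is low where Arntl is high (r = -0.893), Per2 and Per1 are high together (r = 0.863), and the dnPI3K arrays lie apart at high Cry1 and low Nr1d1.

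The other pairs that passed by rho were Cry1 with Nr1d1, Per1 with Per3 and Per2 with Rora, and none of the passing pairs held Dbp or Tef. For Per2 with Rora r was 0.040 over deviations from the group means and 0.393 on the 6 caPI3K and NTG arrays, and for Per1 with Per3 these were 0.681 and 0.841. Dbp and Tef had r = 0.127 (exact permutation p = 0.746, adjusted 0.799) and rho = 0.217 (exact permutation p = 0.581, adjusted 0.638) over the 9 arrays. Without NTG 3 and dnPI3K 1, the arrays farthest in Dbp, their r was 0.600 (exact permutation p = 0.154). Dbp with Per1 gave r = 0.457 (exact permutation p = 0.214, adjusted 0.357) and rho = 0.683 (exact permutation p = 0.0503, adjusted 0.147), and the value moved to 0.909 without dnPI3K 1 and to 0.260 without NTG 1. Dbp with Arntl gave r = -0.437 (exact permutation p = 0.239, adjusted 0.359) and rho = -0.667 (exact permutation p = 0.0589, adjusted 0.147), and r was -0.719 without dnPI3K 1 and -0.271 without NTG 1. Dbp with Nr1d1 gave r = 0.513 (exact permutation p = 0.158, adjusted 0.332) over all arrays and -0.0939 without dnPI3K 1. Dbp with Per2 gave r = 0.377 (exact permutation p = 0.3215, adjusted 0.407). Over deviations from the group means, Dbp had r = 0.680 with Per1, 0.833 with Per2, -0.720 with Arntl, 0.724 with Nr1d1 and 0.2385 with Tef. On the 6 caPI3K and NTG arrays these were 0.9155, 0.747, -0.800, 0.278 and 0.051 (exact permutation, adjusted p from 0.292 to 0.960). Since no hour of collection was stated for any heart, the part of collection time in these levels was not tested.

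The genes most like Arntl over the 9 arrays, among 7476 other genes, held no clock gene among the 5 highest and held Nr1d2 and Per2 among the 5 lowest. The highest Pearson correlations with Arntl were those of Utp14a (0.933), Septin11 (0.924), Aass (0.910), C3ar1 (0.908) and Nudt4 (0.881). The lowest were those of Glud1 (-0.926), Nr1d2 (-0.912), Stub1 (-0.893), Per2 (-0.893) and Arap3 (-0.892). Nr1d2 encodes REV-ERB beta, the close relative of NR1D1. Per2 was 4th and Per1 was 24th from the lowest, while Clock was 151st from the highest.

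For Dbp the highest correlations were those of Plin4 (0.954), Cd36 (0.927), Lamtor5 (0.923), Vps53 (0.900) and Slc4a3 (0.897). The lowest were those of Ifnar2 (-0.940), Plac8 (-0.931), C1qb (-0.924), Cd9 (-0.917) and Tapbp (-0.904). The member nearest to Dbp, Nr1d1, ranked 602nd from the highest, Per1 ranked 831st and Tef 2889th. Plin4 coats lipid droplets and Cd36 takes up fatty acids, whereas C1qb is a complement gene of macrophages. The 5 leukocyte markers, all tested, summed to 1434 to 2436 in NTG, 1595 to 1748 in caPI3K and 1877 to 1967 in dnPI3K. Their sum was 2436 on NTG 1, where Dbp was low, and 1504 on NTG 3, where it was highest. On dnPI3K 1, where Dbp was lowest, it was 1906, between the 1877 of dnPI3K 2 and the 1967 of dnPI3K 3, where Dbp was near the top. The part of leukocytes in the Dbp pattern was not tested. These values are descriptions over 9 arrays that share groups and scaling.

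Beyond the 10 members, a list of other clock machinery had 9 of its 16 genes on the array and 8 tested, and 0 of 8 passed in any comparison by limma, where 0 had an unadjusted p below 0.05 in caPI3K and 1 in dnPI3K relative to NTG, and 2 had one between the transgene groups. Its median log2 fold changes in the same order were -0.04, 0.05 and -0.21. Nr1d2 read 1076, 1483 and 1649 in NTG, 1052, 1280 and 1361 in caPI3K, and 1339, 1897 and 1828 in dnPI3K. Its values overlapped between dnPI3K and NTG, at a log2 fold change of 0.27 ± 0.183 (SE; limma, adjusted p = 0.551), unlike the separated values of Nr1d1. The kinase genes Csnk1d and Csnk1e had log2 fold changes of 0.43 and -0.12 in dnPI3K against NTG (limma, adjusted p = 0.312 and 0.812), and Timeless had -0.28 (limma, adjusted p = 0.411). The other tested Csnk1d probe sets gave 0.16, 0.40 and -0.31.

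A list of known clock output genes had 16 of its 22 genes tested. By limma, in dnPI3K against NTG 1 of 16 rose and 1 fell, where 75 of all 7477 tested genes rose and 89 fell. In caPI3K against dnPI3K 1 was higher and 2 were lower in caPI3K, where 137 of all were higher and 120 lower, and 0 of 16 passed in caPI3K against NTG (2 had an unadjusted p below 0.05). The medians were -0.02 for caPI3K and 0.05 for dnPI3K against NTG, and -0.03 between the transgene groups. Ppara, the fatty acid sensing nuclear receptor, fell in dnPI3K, from 1729 ± 125 in NTG to 501 ± 142 (SD, n = 3), a log2 fold change of -1.82 ± 0.166 (SE; limma, adjusted p = 0.000574), and was 1674 ± 37.2 in caPI3K. Tspan4, a tetraspanin, rose in dnPI3K, from 657 ± 75.5 to 1288 ± 266 (SD, n = 3; limma, adjusted p = 0.0154), a call lost in 5 of 20 alternatives, without dnPI3K 2, dnPI3K 3 or NTG 2 among them (limma, adjusted p up to 0.0746). The taurine transporter gene Slc6a6 was lower in caPI3K than in dnPI3K, at 1893 ± 146 against 2942 ± 72.0 (SD, n = 3; limma, adjusted p = 0.0160), a call lost in 6 of 20 alternatives, without caPI3K 1, caPI3K 3, dnPI3K 2 or dnPI3K 3 among them (limma, adjusted p up to 0.0908). Noct, a clock driven phosphatase gene also known as nocturnin, read 1559.6 ± 159.9 in NTG and 1100.1 ± 96.3 in dnPI3K (SD, n = 3), a log2 fold change of -0.50 that did not pass (limma, adjusted p = 0.0618), and its other tested probe sets gave 0.20 and -0.10.

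Clock genes also respond to glucocorticoids, feeding, temperature and acute stimulation, and short lists for each were read on the same arrays. Of 13 tested glucocorticoid and fasting genes, 2 rose in dnPI3K over NTG (75 of all 7477 tested genes did). They were Irs2, the insulin receptor substrate that fasting induces in liver, at 138 ± 27.1 in NTG and 411 ± 74.9 in dnPI3K (SD, n = 3; limma, adjusted p = 0.0400), and Cebpb, a bZIP transcription factor, with a log2 fold change of 0.79 ± 0.148 (SE; limma, adjusted p = 0.0243). The Irs2 call was lost in 10 of 19 alternatives, on the deposited values (limma, adjusted p = 0.0555) and on leaving out caPI3K 1 or any 1 of the dnPI3K and NTG arrays (limma, adjusted p up to 0.147) among them. The Cebpb call was lost in 7 of 20, without any 1 of the dnPI3K arrays, NTG 1 or NTG 2 among them (limma, adjusted p up to 0.0931). In caPI3K against dnPI3K 3 of the 13 were lower (120 of all genes were), Irs2, Cebpb and the metallothionein gene Mt2 (lost in 5 of 20 alternatives), and by limma 0 passed in caPI3K against NTG (2 had an unadjusted p below 0.05). The medians were -0.07 in caPI3K and 0.24 in dnPI3K relative to NTG and -0.21 between the transgene groups. Fkbp5, Sgk1, Tsc22d3 and Zbtb16, also on the list, did not pass in dnPI3K against NTG. Their log2 fold changes, by the brightest probe set, were 0.24, 0.19, -0.08 and 0.21 (limma, adjusted p from 0.660 to 0.964).

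Of 8 tested temperature responsive genes, 1 rose in caPI3K over NTG (5 of all 7477 tested genes did). It was the chaperone gene Hsph1, from 856 ± 74.3 to 1604 ± 122 (SD, n = 3; limma, adjusted p = 0.0255). That call was lost in 10 of 21 alternatives, on leaving out any 1 array but dnPI3K 1 and NTG 1 among them (limma, adjusted p up to 0.191). In dnPI3K against NTG 0 of 8 passed by limma, and 4 had an unadjusted p below 0.05, where 1113 of all 7477 genes had one. In caPI3K against dnPI3K 3 of 8 were higher and 1 was lower, where 137 of all 7477 genes were higher and 120 lower. Hsph1, Hspa8 and Hsp90aa1 (by the brightest of its probe sets) were the higher ones. The cold inducible Cirbp was lower, at 1101 ± 153 against 1843 ± 198 (SD, n = 3; limma, adjusted p = 0.0160). Of these, Hsph1 was lost in 5 of 20 alternatives, Hsp90aa1 in 5, Cirbp in 4 and Hspa8 in 1. Of 12 tested immediate early genes, 0 passed in any comparison by limma, where 0, 1 and 0 had an unadjusted p below 0.05, and the medians were -0.01 in caPI3K and 0.06 in dnPI3K relative to NTG and -0.14 between the transgene groups. The stress factor Atf3, with the smallest F test p of that list, had a log2 fold change of 0.55 ± 0.245 (SE) in dnPI3K against NTG (limma, adjusted p = 0.329). The part of these responses in the Per3, Cry1 and Rora differences was not tested.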

How the data were processed

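RNA of 9 ventricles was measured on one-colour oligonucleotide arrays. The authors deposited 1 intensity per probe set and array, scaled to a common trimmed mean of about 500.4 as the values show, after scanning at a PMT of 10% per the labels; how probes were summarized was not stated in the records used. The deposited intensities were quantile normalized, raised to a floor at their 20th percentile (35.34), and put on a log2 scale. Probe sets above the floor on at least 3 of 9 arrays were tested, leaving out 66 controls, with limma 3.58.1 (R 4.3.3) and its intensity trend, fitted to all 3 groups with 6 residual degrees of freedom. Of 12488 probe sets, 10855 had 1 gene symbol, 396 several and 1237 were not listed; where a gene had several tested probe sets the brightest stood for it. The tests were checked on simulated data. The members and gene lists were chosen with earlier results of these data known. Named genes are the 10 members, of each other list the genes past the threshold and up to 4 with the smallest F test p, and the 5 highest and lowest correlations with Dbp and Arntl. Cell type markers, and Fkbp5, Sgk1, Tsc22d3 and Zbtb16 of the glucocorticoid and fasting list, were named besides. Replicate numbers follow the order of the sample records and pair nothing. Nothing beyond the mouse numbers says how the hearts were collected, so p-values measure the spread between these arrays, whose number limits the precision. Alternatives covered the scaling, the floor, the filter, the variance trend, array weights, the groups fitted, the mouse number series and each array left out.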

Additional observations from a re-analysis of the deposited data

Results flagged for a closer look

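Per3 and Rora differed between the groups with opposed transgenes. The effect of caPI3K minus that of dnPI3K, both taken against the same NTG hearts, was -1.26 on the log2 scale for Per3 (limma, adjusted p = 0.00883), with all 3 caPI3K hearts below all 3 dnPI3K hearts. For Rora it was -1.54 (limma, adjusted p = 0.0310), again with all 3 below all 3, and that call was lost on leaving out any 1 of the 6 transgenic arrays. Rora differed from NTG past the threshold in neither group (limma, adjusted p = 0.502 and 0.544).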

How the results depend on the processing

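Among probe sets of the members, dnPI3K against NTG gave 2 calls, and 0 with no filter on dim probe sets, 0 without the variance trend, 0 with these groups fitted alone and 0 to 2 on leaving out arrays in turn. Between caPI3K and dnPI3K, 2 became 0 with no filter, 1 above the median intensity, 1 without the trend, 4 with these groups alone and 1 to 3 on leaving out arrays. Over all probe sets, 9 calls for caPI3K against NTG became 1 with no filter, 1 without the trend, 1 with these groups alone and 0 to 20 on leaving out arrays. The 232 for dnPI3K against NTG became 138, 94 and 107 under those settings and 82 to 235. The 345 between the transgene groups became 219 with no filter, 151 without the trend, 527 with array weights and 130 to 434. Other clock and output genes went from 2 to 1 and from 3 to 1 with no filter and without the trend, and to 1 to 3 on leaving out arrays in each. The 3 correlated pairs became 7 with the floor at the 40th percentile and 0 on the 6 caPI3K and NTG arrays. On 6 arrays the smallest exact permutation p, 0.00139, gave an adjusted 0.0625 for the pair that reached it, so no pair could pass by itself. The causes of these changes were not tested, except that fewer arrays entered the last fit. Per3 between the transgene groups passed under every alternative run but the one with no filter (adjusted p = 0.0507), and Per3, Cry1 and Rora passed under both other scalings. Signs turned only for small differences. Against NTG, caPI3K gave Dbp -0.011 on the deposited values, and array weights gave Arntl -0.027 and Per1 0.31 there and Dbp 0.13 in dnPI3K. Leaving out arrays moved caPI3K against NTG over -0.30 to 0.30 for Dbp, -0.058 to 0.62 for Arntl, -0.13 to 0.22 for Tef, -0.89 to 0.47 for Per1 and -0.24 to 0.038 for Per3, and moved Dbp over -0.45 to 0.31 for dnPI3K against NTG and -0.31 to 0.42 between the transgene groups. With the mouse number series as a block, caPI3K against NTG gave 0 calls among the members and 8 over all probe sets. No paired analysis was possible because the replicate numbers follow the order of the records and the labels pair no single hearts.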
